A study of Mus musculus with 12 samples.

Results

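Guanylate-binding proteins (GBPs) are large GTPases of the dynamin superfamily. Here their transcripts were followed in GL261 brain tumours of mice given temozolomide (TMZ), an antibody against PD-1, both or neither. The genes considered were Gbp2, Gbp3, Gbp4, Gbp5, Gbp6, Gbp7, Gbp8 and Gbp9. A gene counted as measured when the array's annotation gave a probe set its symbol and no other. Of the 8 genes, 7 were measured, out of 22180 genes measured in all. Where a gene had several such probe sets, one was to be selected on its mean log2 signal over the 12 arrays, the highest being kept. This applied to 0 of the 7 genes. Gbp2 had no probe set of its own. Its only probe set carried the symbols of Gbp2 and Gbp2b together, so that signal cannot be assigned to either gene and is described apart from the 7.

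The study used GL261, a mouse glioma cell line that is grown in immunocompetent C57BL/6 hosts. All animals were male C57BL/6 mice aged 8 weeks that carried GL261 tumours in the brain, and the tumour tissue was taken on day 16. The Combination group received TMZ at 30 mg/kg into the peritoneum and the anti-PD-1 antibody at 10 mg/kg into a vein with 2 injections per week. The TMZ group received the same TMZ dose alone and the Anti-PD-1 group the same antibody dose alone. The Control group received neither agent, and the labels do not say what it was given instead. Each group had 3 arrays of total RNA. The labels do not state the dosing days or whether each array came from a separate animal, so the p-values measure the spread between arrays. TMZ is an alkylating drug used in glioblastoma, and PD-1 is an inhibitory receptor on T cells. All groups rest on 1 tumour line, which limits them as a model.

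Interferons, above all interferon gamma, switch on GBP genes in many cell types, macrophages and tumour cells among them. Interferon gamma acts through its receptor, the kinases JAK1 and JAK2 and transcription factors that include IRF1. The proteins bind and hydrolyse GTP, assemble on the membranes of bacteria and of parasite vacuoles inside cells, and help to break these open and to start inflammasome signalling. Several carry a C-terminal CaaX motif to which a lipid is attached. In tumours their transcripts are widely used as a readout of interferon exposure.

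The mouse genes lie in a pair of clusters, placed here with RefSeq coordinates of GRCm38.p6. The chromosome 3 cluster holds Gbp5 (chr3:142496934-142522344), Gbp7 (chr3:142530336-142550151), Gbp3 (chr3:142560016-142573213) and Gbp2 (chr3:142620663-142638008). The chromosome 5 cluster holds Gbp8 (chr5:105012513-105053609), Gbp9 (chr5:105076464-105110357), Gbp4 (chr5:105115767-105139586) and Gbp6 (chr5:105270702-105295871). Promoter windows of 300 bases, reaching from 250 bases before to 50 after an annotated start site, were taken from RefSeq (GRCm38.p6). Of the 8 genes, 4 had a window, namely Gbp2, Gbp3, Gbp5 and Gbp7. Both strands of each window were searched for the core of the interferon-stimulated response element (ISRE), GAAA followed after any 2 bases by GAAA, and for the gamma-activated site (GAS), TTCNNNGAA. Transcription factors of the interferon response are known to bind these elements. The windows of the 3 measured genes are shown because these genes moved together across the arrays. Each runs 5′ to 3′ on the plus strand, with matches in capitals, and an ISRE match reads as its reverse complement.
Gbp3, chr3:142559794-142560093: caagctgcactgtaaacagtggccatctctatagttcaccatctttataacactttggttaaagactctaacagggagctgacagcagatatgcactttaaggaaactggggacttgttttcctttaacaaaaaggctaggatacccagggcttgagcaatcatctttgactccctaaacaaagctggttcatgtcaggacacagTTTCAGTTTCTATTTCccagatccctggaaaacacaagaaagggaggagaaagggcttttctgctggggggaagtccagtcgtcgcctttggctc
Gbp5, chr3:142496684-142496983: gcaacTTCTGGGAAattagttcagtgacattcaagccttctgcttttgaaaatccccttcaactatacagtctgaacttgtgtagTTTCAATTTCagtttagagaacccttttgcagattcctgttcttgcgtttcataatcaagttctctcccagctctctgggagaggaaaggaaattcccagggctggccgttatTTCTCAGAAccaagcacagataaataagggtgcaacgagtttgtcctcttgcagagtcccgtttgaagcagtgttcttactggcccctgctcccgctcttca
Gbp7, chr3:142530086-142530385: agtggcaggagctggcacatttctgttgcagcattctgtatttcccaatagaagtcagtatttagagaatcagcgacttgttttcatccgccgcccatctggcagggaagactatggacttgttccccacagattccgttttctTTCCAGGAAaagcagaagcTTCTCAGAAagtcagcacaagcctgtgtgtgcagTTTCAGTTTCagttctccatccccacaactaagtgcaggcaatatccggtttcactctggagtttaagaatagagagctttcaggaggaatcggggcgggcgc

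All 3 printed windows held an ISRE core match. In the Gbp3 window a pair of overlapping matches began at positions -45 and -39, counted from the start site. The Gbp7 match began at -53, beside GAS matches at -106 and -87. The Gbp5 match began at -165, with GAS matches at -245 and -52. The Gbp2 window (chr3:142620413-142620712) had an ISRE match at -59, and the second annotated Gbp3 window held neither motif. Among all 32851 promoter windows of the same length, 1131 (3.44%) held the ISRE core, 2726 (8.3%) the GAS and 149 (0.454%) both. Among the 4 genes with a window, Gbp5 and Gbp7 held both motifs. A match of letters does not show that a factor binds there. The map of motif positions sets the matches against the start sites.

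**Figure D1:**
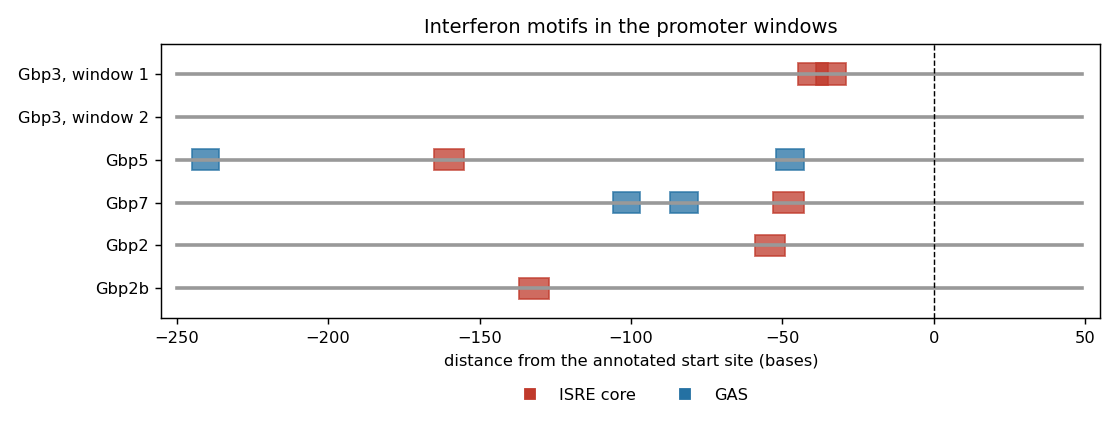
Positions of ISRE core and GAS matches in the promoter windows of Gbp3 (both annotated windows), Gbp5, Gbp7, Gbp2 and the related Gbp2b, in bases from the annotated start site (dashed line at 0). Each grey line is 1 window of 300 bases. The Gbp3 (first window), Gbp7 and Gbp2 ISRE matches begin between -59 and -39, whereas those of Gbp5 and Gbp2b begin at -165 and -137.

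The deposited values are log2 signals on which every step of 1 is a doubling. They came from robust multi-array averaging (RMA), a procedure that removes background, gives all arrays a common distribution and combines each probe set's probes into 1 value. Array medians lay between 5.062 and 5.12, and arrays correlated with each other at 0.984 to 0.991 over all probe sets. Arrays carry no read depth, and 3 per group limit the precision. The first principal component carried 26.6% of the variance. There Control replicate 1 scored -20.1 and Control replicate 2 scored -26.39, whereas Control replicate 3, at -1.28, fell inside the span of -4.1 to 13.93 of all treated arrays. Results that rest on this array are therefore also given without it. The lists of marker genes averaged 9.91 log2 for neurons, 9.45 for astrocytes, 6.00 for proliferating and progenitor cells, 6.78 for microglia and 4.67 for T cells, and the median gene lay at 5.72. Brightness differs between probe sets, so no order is read from these levels. The labels do not say how much brain tissue each sample held.

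The GBP genes differed between arrays more than most genes. By standard deviation over the 12 arrays, Gbp8 ranked 31, Gbp5 35, Gbp4 37, Gbp3 39, Gbp7 75 and Gbp9 89 of 22180 genes, while Gbp6 ranked 2180. Control replicate 2 was the highest array for 6 of the 7 genes, and Anti-PD-1 replicate 1 the lowest for 5 of them. The Anti-PD-1 group had the lowest of the 4 group means in 6 of the 7 genes, against 23.5% of all genes, and Gbp6 was the exception. For Gbp3, Gbp5, Gbp7 and Gbp9 the group means ran in the same order, with Anti-PD-1 lowest, then TMZ, then Combination, and Control highest.

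Gbp3 and Gbp7 belong to the chromosome 3 cluster, whose loss makes mice susceptible to Toxoplasma. Gbp3 (probe set 17403237) had 5.77, 6.14 and 6.14 log2 in Combination tumours and 6.15, 5.22 and 5.56 in TMZ tumours. It had 4.61, 4.85 and 5.52 in Anti-PD-1 tumours and 6.87, 7.08 and 6.11 in Control tumours. All 3 Anti-PD-1 arrays lay below all 3 Control arrays, while the Combination and TMZ arrays each overlapped with Control replicate 3. Gbp7 (probe set 17403224), whose product is known in mice to help assemble the NADPH oxidase on vacuoles, had 7.09, 7.30 and 7.53 in Combination tumours and 7.36, 6.80 and 7.28 in TMZ tumours. It had 5.99, 6.51 and 6.98 in Anti-PD-1 tumours and 7.79, 8.20 and 7.19 in Control tumours. Again Anti-PD-1 lay wholly below Control, and also wholly below Combination.

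Gbp5 (probe set 17403205), the other measured gene of that cluster, encodes a protein known to promote NLRP3 inflammasome assembly. It had 4.96, 5.47 and 5.27 log2 in Combination tumours and 5.33, 4.78 and 4.70 in TMZ tumours. It had 3.86, 3.86 and 4.64 in Anti-PD-1 tumours and 5.61, 6.68 and 4.67 in Control tumours. The Control arrays spread over 2.01 log2 units and the Combination arrays over 0.51. Control replicate 3 stood only just above the highest Anti-PD-1 array, so the absence of overlap rests on a narrow gap.

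The other 4 measured genes lie on chromosome 5. Gbp9 (probe set 17450448) had 5.72, 6.20 and 6.01 log2 in Combination tumours and 6.13, 5.86 and 5.61 in TMZ tumours. It had 5.33, 5.13 and 5.84 in Anti-PD-1 tumours and 6.56, 7.19 and 6.02 in Control tumours. Its Anti-PD-1 arrays lay below its Control arrays and overlapped with its Combination arrays. Gbp4 (probe set 17450461), reported in mouse cells to restrain the interferon factor IRF7, had 4.99, 5.50 and 5.50 in Combination tumours and 5.68, 5.62 and 5.14 in TMZ tumours. It had 3.30, 4.74 and 4.74 in Anti-PD-1 tumours and 5.67, 6.19 and 4.43 in Control tumours. Control replicate 3 lay below a pair of the Anti-PD-1 arrays, so these groups overlapped, whereas Combination and TMZ both lay wholly above Anti-PD-1.

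Gbp8 (probe set 17450434) had 4.58, 4.94 and 5.76 log2 in Combination tumours and 5.19, 3.71 and 4.54 in TMZ tumours. It had 3.03, 3.54 and 4.50 in Anti-PD-1 tumours and 4.66, 5.32 and 3.92 in Control tumours. Combination had its highest mean, unlike in any other of the 7 genes, and its groups overlapped except for Combination above Anti-PD-1. Gbp6 (probe set 17450477) had 2.78, 3.17 and 3.15 in Combination tumours and 2.94, 2.79 and 2.60 in TMZ tumours. It had 3.10, 3.22 and 2.89 in Anti-PD-1 tumours and 3.05, 3.30 and 2.75 in Control tumours. All groups of Gbp6 overlapped, and no group mean left the span from 2.78 to 3.07. Its mean over the 12 arrays, 2.98 log2, was at the 9.4th percentile of all genes, so that it was among the dimmest 25%.

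**Figure D2:**
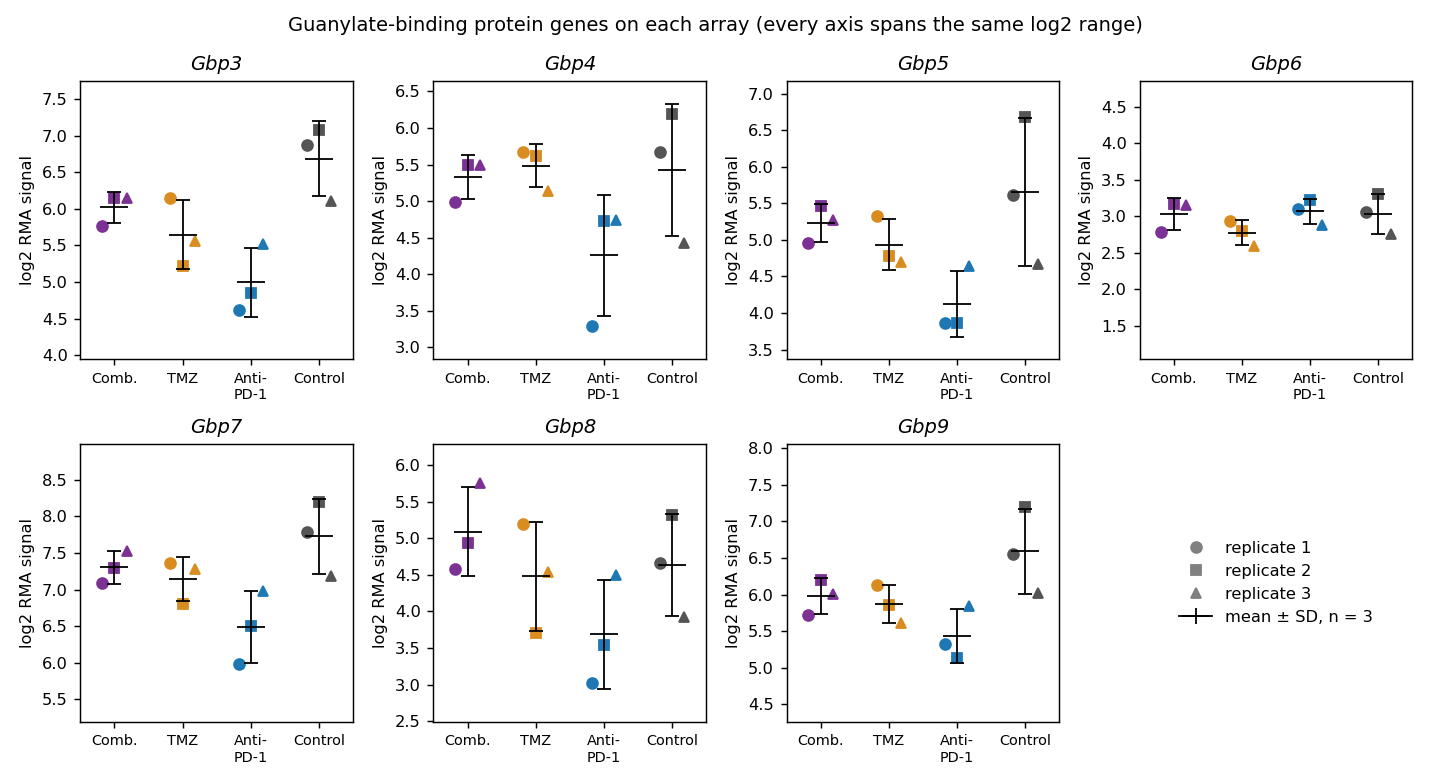
Log2 RMA signal (vertical axes, each spanning the same log2 range) of the 7 measured genes on every array, by group. Symbols give the replicate, and bars the mean ± SD (n = 3). Anti-PD-1 lies below Control without overlap for Gbp3, Gbp5, Gbp7 and Gbp9, and the 4 groups of Gbp6 lie within 2.60 to 3.30.

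The effect of the antibody alone was read from Anti-PD-1 against Control. Gbp3 was the 1 gene of the 7 that passed the test and fell, to 4.99 ± 0.47 log2 in Anti-PD-1 tumours, against 6.69 ± 0.51 in Control tumours (SD, n = 3 each). The signal was 3.23-fold lower, a log2 difference of -1.69 (95% interval -2.34 to -1.04, limma adjusted p = 0.0495). Passing means an adjusted p under 0.05 after Benjamini-Hochberg adjustment over all 22180 genes, and 0.212% of all genes passed in the lower direction. The next 3 genes lay wholly below Control without passing. These were Gbp5 with 4.12 ± 0.45 against 5.65 ± 1.01 (difference -1.53, adjusted p = 0.126), Gbp7 with 6.49 ± 0.50 against 7.73 ± 0.51 (difference -1.24, adjusted p = 0.0844) and Gbp9 with 5.43 ± 0.37 against 6.59 ± 0.59 (difference -1.16, adjusted p = 0.0944). With Gbp3 they made 4 genes whose groups did not overlap, against 8.33% of all genes in that direction. Gbp4 differed by -1.17 (adjusted p = 0.27) and Gbp8 by -0.94 (adjusted p = 0.414), both with overlap. Gbp6 differed by 0.03, with an interval of -0.30 to 0.36. The median difference of the 7 genes was -1.17, against 0.01 over all genes, and 5 of the 7 had an unadjusted p under 0.05 in the lower direction, against 6.79% of all genes.

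The Gbp3 call lay close to the threshold. Without Control replicate 3 the adjusted p of Gbp3 was 0.00579 and 5 genes passed (Gbp3, Gbp4, Gbp5, Gbp7 and Gbp9), in a fit that called 686 of the 22180 genes against 65 in the fit of all arrays, while without Control replicate 2 that of Gbp3 was 0.196 and 0 passed. Gbp3 passed in 2 of the 12 fits that each left out 1 array, the other being the one without TMZ replicate 1. It also missed the threshold with all probe sets tested (adjusted p = 0.0994), with only the compared groups fitted (0.191), with a replicate block (0.0779) and with arrays centred on their medians (0.0506).

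The effect of the drug alone was read from TMZ against Control. Limma called 0 of the 7 genes, against 0.0992% of all genes in either direction. At an unadjusted p under 0.05, Gbp3 and Gbp9 were lower, 2 of the 7, against 5.78% of all genes in that direction. Gbp3 averaged 5.65 ± 0.47 in TMZ tumours against 6.69 ± 0.51 in Control tumours, a difference of -1.04 (95% interval -1.69 to -0.39, adjusted p = 0.235). Gbp9 averaged 5.87 ± 0.26 against 6.59 ± 0.59, a difference of -0.72 (adjusted p = 0.346). The others ranged from -0.72 for Gbp5 to 0.05 for Gbp4, whose interval of -0.91 to 1.02 held changes in both directions. In 0 of the 7 genes were the groups apart, against 6.81% of all genes for lower signals. Without Control replicate 3 the Gbp3 difference was -1.33 and just passed (adjusted p = 0.0498), in a fit that called 363 genes against 22 with all arrays. It passed in 1 of the 12 fits without 1 array, and over these it came as close to 0 as -0.83 and its adjusted p reached 0.579.

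The Combination group was compared with Control in the same way. Limma called 0 of the 7 genes, and 0% of all genes. At an unadjusted p under 0.05 there were 2, Gbp3 and Gbp9, against 6.18% of all genes in the lower direction. Gbp3 averaged 6.02 ± 0.22 in Combination tumours against 6.69 ± 0.51 in Control tumours, a difference of -0.67 (95% interval -1.32 to -0.02, adjusted p = 0.421). Gbp9 averaged 5.98 ± 0.24 against 6.59 ± 0.59, a difference of -0.61 (adjusted p = 0.412). Gbp5 and Gbp7 each differed by -0.42 and Gbp4 by -0.10. Gbp6 differed by -0.0032, and by 0.0079 once each array was centred on its median. Gbp8 differed by 0.46, with an interval of -0.58 to 1.51. The comparisons with Control all use the same 3 Control arrays and are not independent of each other.

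**Figure D3:**
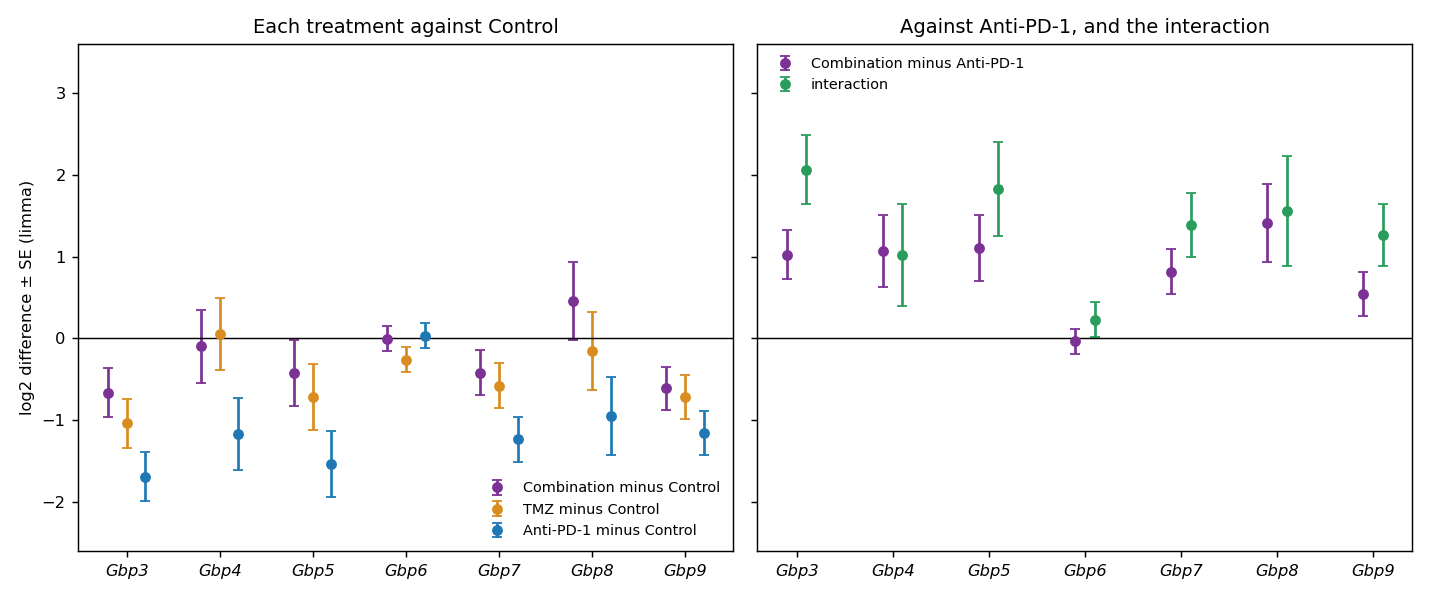
Log2 differences with their limma SE (vertical axis) for the 7 measured genes. The left panel shows each treatment minus Control and the right panel Combination minus Anti-PD-1 and the interaction. Apart from Gbp6 (0.03), every Anti-PD-1 minus Control difference lies between -1.69 and -0.94, and apart from Gbp6 (-0.03) every Combination minus Anti-PD-1 difference lies between 0.54 and 1.41.

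The comparison of Combination with Anti-PD-1 asks what TMZ added to the antibody, and it uses no Control array. Of the 7 genes, 6 had higher means in Combination tumours. Gbp8 averaged 5.09 ± 0.61 in Combination tumours against 3.69 ± 0.75 in Anti-PD-1 tumours (SD, n = 3 each), a difference of 1.41 (95% interval 0.36 to 2.45, 2.65-fold). Gbp5 averaged 5.23 ± 0.26 against 4.12 ± 0.45, a difference of 1.11. The differences of Gbp4 and Gbp3 were 1.07 and 1.02, and that of Gbp7 was 0.81. In these 5 genes every Combination array lay above every Anti-PD-1 array, against 4.87% of all genes in that direction. Limma called 0 of them after adjustment (adjusted p = 1 for each) and 0% of all genes, and 5 of the 7 had an unadjusted p under 0.05, against 2.01% of all genes for higher signals. Gbp9 differed by 0.54 (interval -0.04 to 1.13) with overlap, and Gbp6 by -0.03. The median difference of the 7 genes was 1.02, against -0.0045 over all genes.

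Setting Combination against TMZ asks what the antibody added to the drug. Limma called 0 of the 7 genes and 0% of all genes, and 0 of the 7 had an unadjusted p under 0.05, against 4.19% of all genes in either direction. Differences ran from -0.15 for Gbp4 (interval -1.12 to 0.81) to 0.61 for Gbp8 (interval -0.43 to 1.66). These intervals are wide, so the test does not show that the groups were alike. TMZ against Anti-PD-1 also gave 0 calls among the 7 genes and 0% among all genes. Here 3 of the 7 genes, Gbp3 (0.65), Gbp4 (1.22) and Gbp7 (0.66), were higher in TMZ at an unadjusted p under 0.05, against 2.11% of all genes. Gbp4 and Gbp5 lay wholly above Anti-PD-1, against 4.38% of all genes.

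The interaction asks whether the Combination value departs from the sum of both single-agent differences on the log2 scale. A positive value means that Combination lay above that sum. All 7 genes had positive values, with 0 called by limma, against 0.00451% of all genes. Gbp3 had an interaction of 2.06 (95% interval 1.14 to 2.98, adjusted p = 0.2), and Gbp5 one of 1.83 (interval 0.58 to 3.07, adjusted p = 0.376). Gbp8, Gbp7, Gbp9, Gbp4 and Gbp6 had 1.56, 1.39, 1.26, 1.02 and 0.23. At an unadjusted p under 0.05 there were 5 (Gbp3, Gbp5, Gbp7, Gbp8 and Gbp9), against 4.65% of all genes for positive values. Without Control replicate 3 the interactions of Gbp3 (2.35, adjusted p = 0.0216) and Gbp5 (2.32, adjusted p = 0.0402) passed, in a fit that called 198 genes against 1 with all arrays. Each passed in 1 of the 12 fits without 1 array. Over these the Gbp3 interaction was as low as 1.85, with an adjusted p of up to 0.418, and the Gbp5 interaction as low as 1.31, with an adjusted p of up to 0.602.

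With the 3 treated groups averaged and set against Control, all 7 genes had negative differences and 0 passed, against 0.888% of all genes in either direction. Gbp3 averaged 5.55 over the treated groups against 6.69 in Control tumours (difference -1.13, adjusted p = 0.0553). Gbp5, Gbp9 and Gbp7 had -0.89, -0.83 and -0.75, so that 4 genes had an unadjusted p under 0.05 in the lower direction, against 7.83% of all genes. Without Control replicate 3 these 4 passed, with Gbp3 at -1.42 (adjusted p = 0.0113), in a fit that called 838 genes against 197 with all arrays. Without Control replicate 2 the Gbp3 difference was -0.93 (adjusted p = 0.316) and the Gbp5 difference -0.38 (adjusted p = 0.697), against -1.38 for Gbp5 without Control replicate 3. A test over all 4 groups at once (limma's moderated F test) called 0 of the 7, against 0.00451% of all genes. It gave 4 at an unadjusted p under 0.05, against 10.1% of all genes, with Gbp3 smallest (adjusted p = 0.176).

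The GBP genes varied together from array to array. Over the 12 arrays, Pearson's r between the 6 measured genes other than Gbp6 ran from 0.656 to 0.961 over their 15 pairs, with a median of 0.834. Gbp6 correlated with the others at 0.154 to 0.314. After each group's mean was taken away, the 15 pairs had 0.678 to 0.972 (median 0.816) and the 6 pairs with Gbp6 had 0.385 to 0.612. The genes thus varied together inside groups as well as between them. These values are descriptions, since probe sets on 1 array share its RNA and its normalisation, and paralogous probes may share targets.

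The probe set shared by Gbp2 and Gbp2b (17403268) had a like pattern. It had 7.02, 7.79 and 7.67 log2 in Combination tumours and 7.57, 5.82 and 6.85 in TMZ tumours. It had 5.22, 6.18 and 7.09 in Anti-PD-1 tumours and 8.14, 8.97 and 7.31 in Control tumours. Anti-PD-1 again lay wholly below Control, and its r with Gbp3 was 0.962. This signal was not tested among the 22180 genes because of its mixed annotation. The related genes Gbp10, Gbp2b and Gbp11, which lie outside the 8 considered, had means of 6.71 ± 0.75, 3.90 ± 0.05 and 3.88 ± 0.54 in Anti-PD-1 tumours, against 8.81 ± 1.05, 4.36 ± 0.13 and 5.25 ± 0.80 in Control tumours. Limma called 0 of the 3, with adjusted p from 0.154 to 0.322. All 3 had an unadjusted p under 0.05, against 6.79% of all genes in the lower direction. Gbp10 lies in the chromosome 5 cluster with Gbp6, and over the arrays it followed Gbp3 (r = 0.961) more closely than Gbp6 (r = 0.293).

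**Figure D4:**
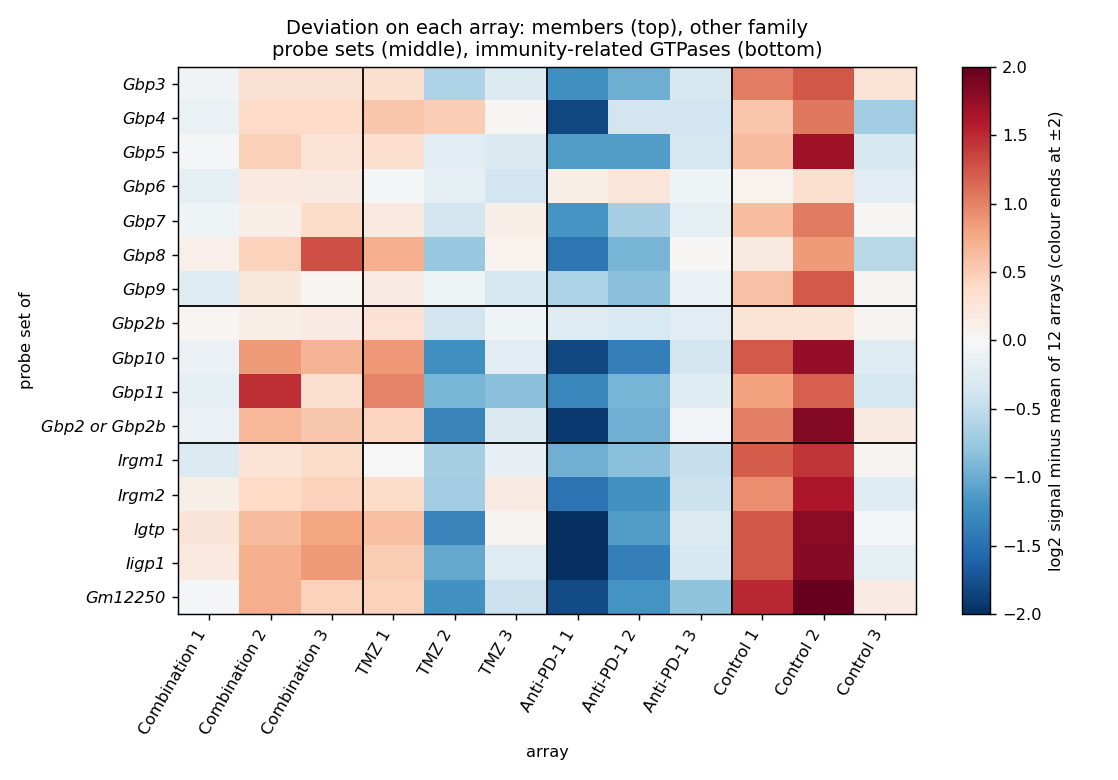
Each cell is the log2 signal of a probe set (rows) on an array (columns) minus its mean over the 12 arrays, with colours ending at ±2. Rows are the 7 measured GBP genes, the other family probe sets and the immunity-related GTPases. Most rows are red in Control replicates 1 and 2 and blue in Anti-PD-1 replicates 1 and 2, whereas Gbp6 and Gbp2b stay pale throughout.

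The immunity-related GTPases are a second family of interferon-inducible GTPases that act with GBPs on parasite vacuoles in mice. Of 8 listed genes 5 were measured. In Anti-PD-1 tumours all 5 lay wholly below Control, against 8.33% of all genes, with a median difference of -2.25. All 5 had an unadjusted p under 0.05, against 6.79% of all genes in the lower direction. After adjustment 0 passed (smallest limma adjusted p = 0.056), against 0.212% of all genes in that direction. Irgm1, a regulator of the family that guards host membranes, averaged 5.14 ± 0.26 in Anti-PD-1 tumours against 6.79 ± 0.74 in Control tumours. Iigp1, an effector GTPase loaded onto Toxoplasma vacuoles, averaged 5.61 ± 0.93 against 7.86 ± 1.04. In Combination minus Anti-PD-1 all 5 were positive without overlap, against 4.87% of all genes in that direction. Their median was 1.65, again with 0 calls and 0% of all genes called.

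To describe the arrays, each gene of a list was centred on its own mean over the 12 arrays, and the centred log2 values were averaged into a list score. The GBP score was -0.09, 0.31 and 0.40 in Combination tumours and 0.32, -0.25 and -0.16 in TMZ tumours. It was -1.05, -0.67 and -0.20 in Anti-PD-1 tumours and 0.53, 1.06 and -0.21 in Control tumours. Control replicate 3 thus had nearly the score of the highest Anti-PD-1 array, and the other Control arrays stood above every other array. The score of the immunity-related GTPases followed it with r = 0.971 over the 12 arrays.

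The 10 genes outside the 8 whose signals followed the GBP score most closely, among 22173 compared, were Iigp1, Samhd1, H2-T23, Irgm2, Lgals3bp, Gbp10, Ctsc, Sp110, Oasl2 and B2m. Iigp1 came first, with Pearson's r = 0.977 and Spearman's rho = 0.972, and B2m 10th, with 0.956 and 0.986. Leaving out Control replicate 2 and Anti-PD-1 replicate 1, the arrays farthest from the median score, gave 0.957 for Iigp1 and 0.893 for B2m. Samhd1 encodes a dNTPase that restricts viruses, H2-T23 a nonclassical MHC class I molecule and B2m the light chain of MHC class I. Oasl2 is a relative of the oligoadenylate synthetases, Ctsc encodes the protease cathepsin C and Lgals3bp a secreted galectin ligand. B2m had 11.24, 11.32 and 11.54 log2 in Combination tumours and 11.44, 10.87 and 11.26 in TMZ tumours. It had 10.46, 10.92 and 11.19 in Anti-PD-1 tumours and 11.77, 11.91 and 11.19 in Control tumours. In all, 83 genes had an r over 0.9.

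The genes that lie upstream of the GBPs were taken from a list of interferon ligands, receptors, kinases, factors and inhibitors, of which 16 were measured. Interferon gamma itself (Ifng) averaged 4.46 ± 0.16 log2 in Anti-PD-1 tumours against 4.62 ± 0.07 in Control tumours, with overlap (adjusted p = 0.442). The receptor genes Ifngr1 and Ifngr2 differed by -0.11 and -0.13, and the kinase genes Jak1 and Jak2 by 0.10 and -0.07. None of these 5 passed, and 0 of them had an unadjusted p under 0.05 in Anti-PD-1 minus Control. Of them, Ifngr2 lay wholly below Control and Jak1 wholly above it. The type I receptor gene Ifnar2 differed by -0.21 and lay wholly below Control (limma unadjusted p = 0.00771, adjusted p = 0.19). Ifnar1 differed by 0.04 and the kinase gene Tyk2 by 0.06, both with overlap. Larger differences were seen for Irf1, Irf9 and Usp18. Irf1 averaged 5.54 ± 0.12 in Anti-PD-1 tumours against 6.34 ± 0.45 in Control tumours (difference -0.81, adjusted p = 0.1). Irf9, a factor of the type I interferon response, averaged 6.40 ± 0.09 against 7.15 ± 0.36 (difference -0.74, adjusted p = 0.0815). Usp18, an interferon-induced brake on the type I receptor, averaged 5.43 ± 0.56 against 7.42 ± 0.84 (difference -1.98, adjusted p = 0.0616). In the list as a whole 13 of 16 were lower, with a median of -0.18. Of these, 8 had an unadjusted p under 0.05, against 6.79% of all genes in the lower direction, and 0 passed.

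Lists of genes that act with GBPs gave smaller values. Of 10 inflammasome and pyroptosis genes, 9 were lower in Anti-PD-1 tumours, with a median of -0.26. Of these, 5 had an unadjusted p under 0.05, against 6.79% of all genes in the lower direction, and 0 passed after adjustment. Casp4, the sensor of bacterial lipopolysaccharide in the cytosol, averaged 4.30 log2 against 5.06 in Control tumours, and Aim2, a DNA sensor, 3.87 against 4.14. The 10 genes of ATG8 conjugation, which is needed to bring GBPs to vacuoles, split into 5 higher and 5 lower, with a median of 0.0007 and 0 at an unadjusted p under 0.05. The 6 genes of CaaX prenylation, whose products attach the lipid anchor or process the CaaX end, had a median of 0.06 with 0 calls. At an unadjusted p under 0.05, 1 was higher (Icmt at 0.15, limma adjusted p = 0.26), against 1486 of all 22180 genes in that direction. Among 8 measured relatives in the dynamin superfamily, Mx1, an interferon-induced GTPase, fell in the average of the treated groups. It averaged 3.18 log2 against 3.56 in Control tumours (difference -0.38, limma adjusted p = 0.0351). In that comparison 0.888% of all genes passed in either direction. Mx1 was dim, with a mean of 3.27 over the 12 arrays. That is below Gbp2b, whose mean of 4.16 was at the 24.3th percentile of all genes. The median of these relatives in Anti-PD-1 minus Control was 0.03, with 0 calls. At an unadjusted p under 0.05, 2 were lower (Mx1 at -0.44, adjusted p = 0.0587, and Mx2 at -0.47, adjusted p = 0.255) and 1 was higher (Dnm3 at 0.17, adjusted p = 0.36). Over all 22180 genes, 1507 were lower and 1486 higher at that threshold.

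Markers of cell types and of dividing cells differed between groups as well. The counts below for Anti-PD-1 minus Control stand beside these shares of all genes in the lower direction. Of all genes 0.212% passed, 6.79% had an unadjusted p under 0.05 and 8.33% lay wholly below Control. All 7 proliferation and progenitor markers were lower in Anti-PD-1 than in Control tumours without overlap, and Mki67, Top2a, Ccna2 and Myc passed, with their levels at 5.38, 4.46, 4.84 and 6.20 log2 against 6.55, 6.32, 6.24 and 6.87. The mean level of the list ranged from 5.49 to 5.71 in Anti-PD-1 tumours and from 6.30 to 6.99 in Control tumours. The fall was not particular to the antibody. All 7 were also lower than Control in Combination tumours (7 without overlap, 0 passing, median -1.02). Over all 22180 genes, 1734 lay wholly below Control in that comparison and 0% passed. In TMZ tumours all 7 were lower too (6 without overlap, 1 passing, median -1.01), and the Anti-PD-1 median was -1.16. For TMZ, 6.81% of all genes lay wholly below Control and 0.0992% passed in either direction. With the treated groups averaged, all 7 passed, against 0.888% of all genes in either direction. All 9 measured microglia markers were lower in Anti-PD-1 tumours, 5 without overlap, 0 passed and 2 had an unadjusted p under 0.05. With the treated groups averaged, 1 of them, Olfml3, passed (difference -0.38, limma adjusted p = 0.0368). The mean level of the microglia list ranged over 6.78 to 6.86 in Combination, 6.53 to 6.84 in TMZ, 6.70 to 6.81 in Anti-PD-1 and 6.81 to 6.97 in Control tumours. Of 10 monocyte and macrophage markers 8 were lower and 1, Plac8, passed (difference -0.69, adjusted p = 0.0326). Their mean level was 5.41 to 5.59 in Anti-PD-1 and 5.55 to 5.98 in Control tumours. T cell markers, 6 of 8 lower with 0 passing and 1 at an unadjusted p under 0.05, ranged over 4.53 to 4.77 in Anti-PD-1 and 4.66 to 4.87 in Control tumours. Natural killer cell markers, 4 of 6 lower with 0 passing and 0 at an unadjusted p under 0.05, ranged over 4.15 to 4.19 in Anti-PD-1 and 4.17 to 4.32 in Control tumours. Both lists were dim, averaging 4.67 log2 for T cells and 4.16 for natural killer cells, against 5.72 for the median gene. Differences this small in dim genes say little about the number of these cells.

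Of 10 neuron markers 9 were higher in Anti-PD-1 tumours, with 0 passing and 0 at an unadjusted p under 0.05, and their mean level ranged over 9.93 to 9.96 in Anti-PD-1 and 9.86 to 9.92 in Control tumours. Of 9 endothelial markers 8 were higher in Anti-PD-1 tumours, with 0 passing. Of these, 3 had an unadjusted p under 0.05, against 1486 of all 22180 genes for higher signals. Their mean level ranged over 6.75 to 6.80 in Combination, 6.65 to 7.21 in TMZ, 6.68 to 6.77 in Anti-PD-1 and 6.54 to 6.62 in Control tumours, so that every treated array was above every Control array. Of 7 astrocyte markers 4 were lower in Anti-PD-1 tumours, with 0 passing. Of these, 2 had an unadjusted p under 0.05, against 6.79% of all genes for lower signals. Gfap, an astrocyte intermediate filament, averaged 9.02 log2 against 9.61 in Control tumours (difference -0.59, adjusted p = 0.125), and the mean level of the list was 9.35 to 9.43 against 9.45 to 9.58. Of 5 oligodendrocyte markers 3 were lower, with 0 at an unadjusted p under 0.05, and their mean level was 8.93 to 8.99 in Anti-PD-1 and 8.87 to 9.06 in Control tumours. Over the 12 arrays the GBP score had r = 0.896 with the monocyte, 0.772 with the proliferation and 0.685 with the T cell score. It had r = 0.674 with the microglia, 0.638 with the astrocyte and 0.499 with the natural killer cell score. With the oligodendrocyte, endothelial and neuron scores r was 0.091, -0.246 and -0.808. After each group's mean was taken away, r was 0.89 with the monocyte, 0.883 with the proliferation and 0.871 with the T cell score. It was then 0.766 with the natural killer cell, 0.705 with the microglia and 0.33 with the astrocyte score. For the oligodendrocyte, endothelial and neuron scores it was then 0.272, -0.099 and -0.617. These scores share the arrays and their normalisation. With the neuron score as a covariate the Gbp3 difference between Anti-PD-1 and Control was -1.19 (adjusted p = 0.578), and 0 of the 7 genes passed. Over all genes that fit called 0 in this comparison, against 65 without the covariate. The loss of calls was thus not particular to the GBP genes. The neuron scores of the Anti-PD-1 and Control arrays did not overlap, so this fit cannot separate a neuron part from a group difference. The part of neurons, of other cell types and of dividing cells in the GBP values was not tested. In whole tissue, fewer cells of a type and less RNA per cell cannot be told apart.

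**Figure D5:**
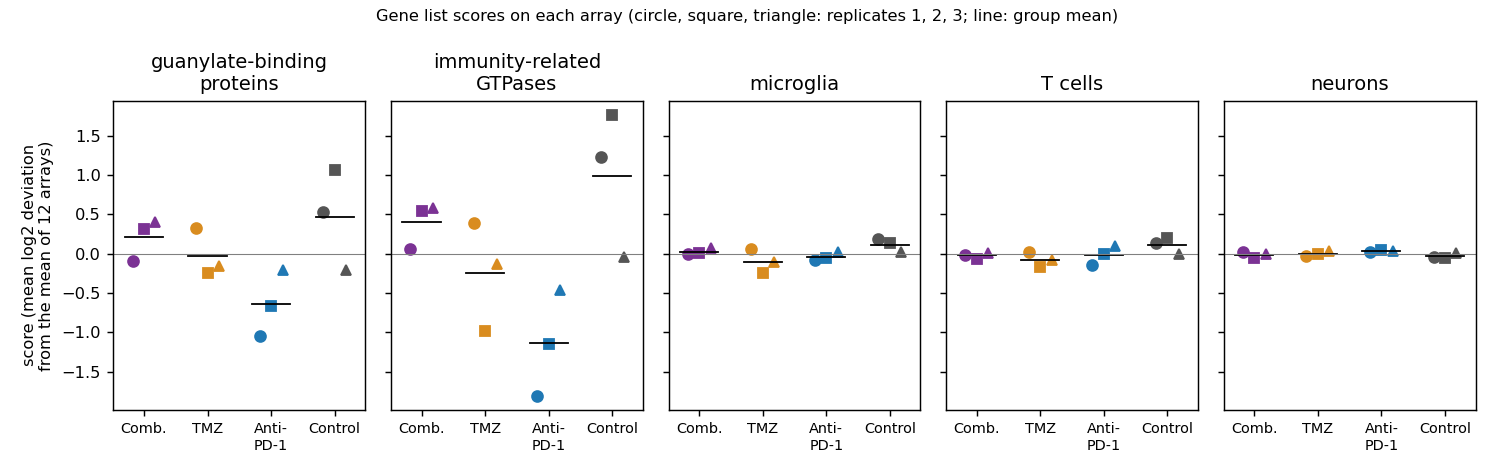
Scores (vertical axis, mean log2 deviation from the mean of the 12 arrays) of the GBP genes and of 4 further gene lists on every array, by group, with lines at the group means. The GBP scores run from -1.05 to 1.06 and follow the immunity-related GTPases, while the neuron scores stay within -0.05 and 0.05.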

How the data were processed

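Total RNA of 12 GL261 tumour samples was hybridised to Affymetrix whole-transcript mouse arrays, 3 for each of 4 groups taken from the labels. The deposited values are log2 RMA signals made by the authors in the Affymetrix Expression Console, per the submitters' processing notes, with no version given. They cover 41345 probe sets, range from 1.24 to 13.14 and hold 0 missing values. The array annotation named 1 symbol for 23521 probe sets, several for 1814 and did not list 16010. The brightest single-symbol probe set stood for each gene, which left 22180 genes, with no filter on brightness.

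Limma 3.58.1 (R 4.3.3) fitted a mean per group to each gene over all 12 arrays, leaving 8 residual degrees of freedom, then eBayes with default settings. P-values were two-sided, with Benjamini-Hochberg adjustment per contrast across every gene and a threshold of 0.05. Limma was tested on simulated data first. The SD is over 3 arrays, and 95% intervals are limma's. Promoter windows and gene coordinates came from RefSeq (GRCm38.p6), which did not enter the tests. Named genes were the 8 members, list genes past the threshold or else up to 4 with the smallest F test p, and the 10 genes most like the members. Ifng, Ifngr1, Ifngr2, Ifnar1, Ifnar2, Jak1, Jak2 and Tyk2 fall outside this rule and were named for their roles after their values were seen. The members and lists were chosen with earlier results of these data known. Alternatives covered the variance model, array weights, the samples fitted, the probe sets, centring, a neuron covariate, a replicate block and leaving out each array.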

Additional observations from a re-analysis of the deposited data

How the results depend on the processing

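For Anti-PD-1 minus Control, limma called 1 of the 7 genes in the reported fit. It called 4 with an intensity trend and 3 with array weights. It called 0 with only the compared groups fitted, with all probe sets tested, with arrays centred on their medians, with the neuron covariate, and with a replicate block. Without the dimmest 25% of genes, or with the mean over probe sets, the count was 1. Leaving out each array in turn gave 0 to 5. Gbp3 kept its direction throughout, with differences of -1.74 to -1.19 and adjusted p of 0.0056 to 0.578 over the settings, and -1.98 to -1.49 with 0.00579 to 0.196 over the fits without 1 array. For all treated minus Control the count was 0 as reported, 3 with the trend, 1 with array weights, 1 without the dimmest 25% and 0 to 4 without 1 array. The F test gave 1 with the trend and 0 to 1 without 1 array. Its calls over all genes were not counted in these fits, so these counts have no share to be read against. TMZ minus Control gave 0 to 1 and the interaction 0 to 2 without 1 array. Combination minus Control, minus TMZ and minus Anti-PD-1, and TMZ minus Anti-PD-1, gave 0 in every alternative run. The highest counts came without Control replicate 3. The cause of these changes was not tested.

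With the neuron covariate 7 differences that had not passed changed sign: Gbp4 Combination minus Control 0.043, Gbp6 Combination minus Control 0.067, Gbp6 all treated minus Control 0.097, Gbp6 interaction -0.16, Gbp8 TMZ minus Control 0.060, Gbp8 all treated minus Control 0.071 and Gbp9 Combination minus TMZ -0.0056. With array weights Gbp4 TMZ minus Control was -0.076, and with centred arrays Gbp6 Combination minus Control was 0.0079. Leaving out 1 array turned the sign of further differences. Combination minus Control ran from -0.60 to 0.28 for Gbp4, -0.92 to 0.089 for Gbp5 and -0.14 to 0.13 for Gbp6. Combination minus TMZ ran from -0.32 to 0.019 for Gbp4, -0.017 to 0.26 for Gbp7 and -0.020 to 0.24 for Gbp9. TMZ minus Control ran from -0.45 to 0.43 for Gbp4 and -0.51 to 0.24 for Gbp8. For Gbp6, Anti-PD-1 minus Control ran from -0.11 to 0.16 and Combination minus Anti-PD-1 from -0.13 to 0.092. All treated minus Control ran from -0.22 to 0.055 for Gbp6 and -0.57 to 0.13 for Gbp8.

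Over all genes, Anti-PD-1 minus Control had 65 calls as reported, 381 with the trend, 260 with array weights, 145 without the dimmest 25%, 43 with centred arrays, 20 with the replicate block, 2 with all probe sets, 0 with the neuron covariate or only the compared groups, and 1 to 686 without 1 array. Over all genes TMZ minus Control had 22 calls as reported, 0 to 113 over the settings and 0 to 363 without 1 array. Combination minus Control had 0, 0 to 42 and 0 to 282, all treated minus Control 197, 5 to 677 and 1 to 838, and the interaction 1, 0 to 12 and 0 to 198. Deviations from group means of same-numbered arrays in different groups correlated at -0.162 to 0.156 over 18 pairs (median -0.012). Arrays with different numbers correlated at -0.268 to 0.201 over 36 pairs (median 0.003). These values show no closer likeness of same-numbered arrays, but they cannot tell whether the numbers mark a pairing.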
